A study of Populus deltoides with 38 samples.

Results

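The mRNA response of poplar leaves to cadmium (Cd) at the middle of 3 sulfate supplies is described here, from 6 of the 18 mRNA libraries of the series. The Cd-treated plants of Populus deltoides received 100 µM sulfate for 12 days and were then given 50 µM CdCl2 for a further 21 days with sulfate unchanged (libraries +CdM1 to +CdM3), and the plants they were set against received 0 µM CdCl2 in the same schedule (libraries −CdM1 to −CdM3). Both groups were raised from stem cuttings of the strain given as monilifera, in sand culture followed by hydroponics, and the labels give an age of 89 days. Where the Cd effect is compared between sulfate levels, the low level is 0 µM and the high level 1500 µM sulfate, again with 3 libraries with and 3 without Cd at each level. All loci with a mean of at least 1 FPKM (fragments scaled by transcript length and library size, a level per length) over the 18 libraries were taken, 23166 of the 39572 loci in the files. The labels do not say which plants each library came from, so the p-values reflect only how far these samples differ among themselves, a spread that may be technical.

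Sulfate is the plant's source of sulfur for cysteine, glutathione and phytochelatins, the thiol peptides that bind Cd and carry it into the vacuole. Cd also disturbs the supply of other metals. A set of plant miRNAs, among them miR397, miR398 and miR408, is known to accumulate when copper is scarce and to cut mRNAs of plantacyanin, laccases and copper/zinc superoxide dismutase, all of which hold copper, and in poplar miR1444 is known to cut transcripts of polyphenol oxidases, also copper enzymes. A second set, miR472, miR482 and miR1448, is known to cut transcripts of disease resistance genes with a nucleotide binding site and leucine-rich repeats.

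Gene names are not paired with the Populus identifiers in these files, and 0 of 39512 identifiers matched the reference table, so sulfate, glutathione and metal transport genes and the markers of leaf cell types were not analysed here, and the labelled tissue could not be set against its markers. The genes that can be given a role are those whose transcript the degradome, a library of cut transcript ends, lists as cut by a named miRNA family. The degradome was made from 1 pool of 9 RNAs with Cd and 1 pool of 9 RNAs without Cd, each mixing the sulfate levels, and its categories run from 0, the clearest cut, to 4. Loci with a site in categories 0 to 2 were used.

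The sequences that carry these lists are the most abundant mature sequence of each family in the deposited small RNA files, shown 5′ to 3′ with the seed, bases 2 to 8, in capitals.
miR408: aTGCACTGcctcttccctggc
miR398: tGTGTTCTcaggtcgcccctg
miR397: tCATTGAGtgcagcgttgatg
miR1444: tATTCGGTcaacgttcgagtg
miR472: tTTTCCCTactccacccatccc
miR482: tCTTGCCTactcctcccattcc
miR1448: tCTTTCCAacgcctcccatacc
miR530: tGCATTTGcacctgcatcttt
The first 4 belong to families that rose with Cd, and the last 4 to families that were not called themselves. Many cut loci of miR472, miR482 and miR530 fell, and 1 of the 2 tested for miR1448. These sequences made up 95.0% of the miR408 reads, 95.4% of miR398, 91.4% of miR397, 60.4% of miR1444, 67.3% of miR472, 64.8% of miR482, 95.6% of miR1448 and 63.9% of miR530. No seed was identical between families: the 14 families examined had 14 distinct seeds. Distinct seeds do not mean unrelated sequences, and those of miR472 and miR482 printed above have the same base at most positions. For these 2 families 6 loci were listed as cut by both.

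The mRNA read depth is not known, since FPKM keep no library totals. In the lowest values, which fall in steps of 1 read, the step in +CdM3 was 1.41 times that in −CdM1, and in the other 4 libraries 1.07 to 1.15 times, in bins of 0.1 on the log2 scale, so +CdM3 was the shallowest of the 6. Across loci, libraries correlated at 0.966 to 0.978 within the +Cd group and at 0.974 to 0.976 within the −Cd group, and loci are not independent replicates.

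Cd changed many leaf transcripts at middle sulfate, and with the values as deposited the losses were both more frequent and larger than the gains. Of 23166 loci 4820 were called, which is 20.8% (limma, Benjamini-Hochberg adjusted p under 0.05, two-sided). Of these 1787 rose (7.71% of the loci tested) by a median of 0.52 on the log2(FPKM + 1) scale, and 3033 fell (13.1%), with a median of −0.65. A change of at least 2-fold was passed by 180 of the loci that rose (0.777%) and by 880 of those that fell (3.8%). The median over all loci was −0.0006. In RNA from whole leaves, fewer cells of a type and less RNA per cell cannot be told apart. All 3 +Cd values lay above all 3 −Cd values at 3702 loci (16%) and below them at 4840 (20.9%).

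The split between directions moves with the scaling. FPKM summed over all loci came to 792787 to 839885 in the +CdM libraries and 858094 to 976794 in the −CdM libraries, without overlap. Whether these sums account for the split was not tested. Under quantile normalization, which shifted the median of all loci to 0.066, 2958 loci were higher and 2488 lower, so that 54.3% of the calls were higher against 37.1% with the values as deposited. The number of higher loci was also moved by single libraries, to 1069 without −CdM3, 1096 without +CdM3 and 1165 without +CdM2, and to 1040 in a fit of the 6 middle sulfate libraries alone. The lower loci then numbered 2159 to 3225 with single libraries left out and 2157 in the 6-library fit.

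**Figure D1:**
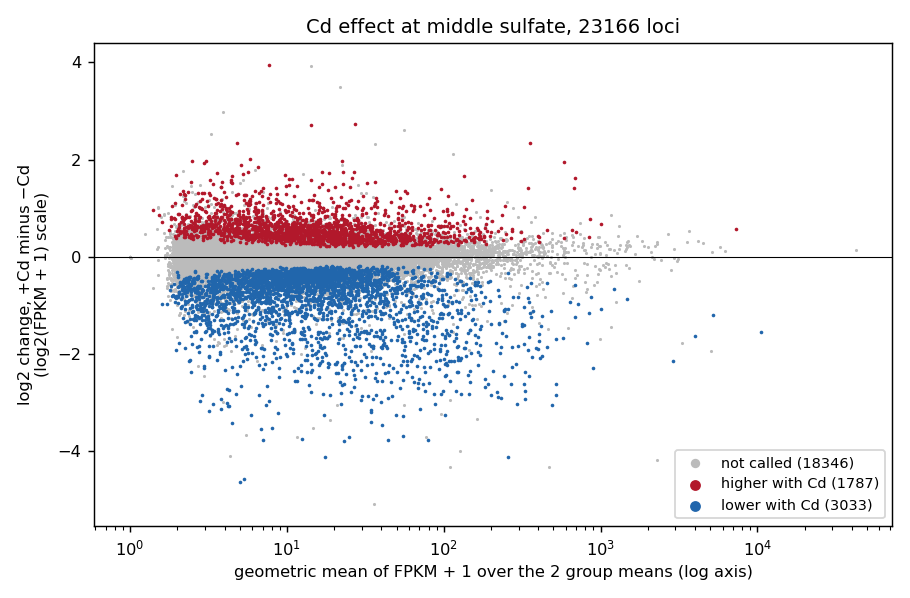
Log2 change of each of the 23166 loci (y axis, +Cd minus −Cd at middle sulfate, log2(FPKM + 1) scale) against its level (x axis, geometric mean of FPKM + 1 over the +Cd and −Cd group means, log axis). Red points rose (1787), blue points fell (3033) and grey points were not called; the blue cloud reaches farther from 0 than the red one at most levels.

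Of the loci with at least 10 FPKM in the higher group and groups that did not overlap, Potri.002G188000 (chromosome 2, 14792735 to 14793844; the build is not given in the sources used here) had the largest gain. It had 19.1, 52.5 and 38.0 FPKM in +CdM1 to +CdM3, against 3.53, 3.79 and 5.84 FPKM in −CdM1 to −CdM3. Every +Cd library was above every −Cd library, but the +Cd values differed by more than 2-fold among themselves. The change was 2.71 ± 0.86 (SE; limma, adjusted p = 0.038), and it lost the call when any one of 5 of the 6 libraries was left out, with adjusted p up to 0.114 (+CdM1 was the exception), and at a pseudocount of 0.1 (adjusted p = 0.14). Potri.006G254100 (chromosome 6, 25912920 to 25917176) had the smallest p among the gains. It stood at 52.5, 70.3 and 59.3 FPKM in +CdM1 to +CdM3 and at 20.2, 18.1 and 22.6 FPKM in −CdM1 to −CdM3, well apart, and rose by 1.53 ± 0.13 (limma, adjusted p = 5.5e-06).

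Potri.005G024900 (chromosome 5, 1846716 to 1848660) was listed at 0 in +CdM1, +CdM2 and +CdM3 and at 23.7, 19.6 and 28.2 FPKM in −CdM1 to −CdM3. It had the largest loss by the same rule (limma, adjusted p = 0.00012), and no fold is given because a listed 0 can also be a failed estimate. Potri.001G397200 (chromosome 1, 41808762 to 41810069) had the smallest p among the losses. Its level was 35.0, 29.8 and 33.3 FPKM in +CdM1 to +CdM3 and 147.0, 181.1 and 189.6 FPKM in −CdM1 to −CdM3, a clear separation, and the change was −2.36 ± 0.17 (limma, adjusted p = 4.9e-06). Its Cd change was −1.04 with low and −2.22 with high sulfate. The fitted changes of the 8 largest gains by this rule ran from 1.75 to 2.71 and those of the 8 largest losses from −4.62 to −3.25. The −4.62 and the next, −4.57, belong to loci listed at 0 in all 3 +Cd libraries, so these fitted values depend on the pseudocount. Among these largest changes, 4 of the 8 gains and 7 of the 8 losses were also called in the same direction at high sulfate. There 4.82% of all loci rose and 8.59% fell. At low sulfate 0 of either were called, where 0.319% of all loci rose and 0.397% fell. A missing call there does not mean no change. The fitted low sulfate changes ran from 0.07 to 3.63 for these gains and from −1.64 to 1.14 for these losses. The 3.63 was that of Potri.002G188000 (limma, adjusted p = 0.078), which changed by 3.12 at high sulfate (limma, adjusted p = 0.028).

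The response differed with the genomic span of the locus, the distance between the start and the end that the files list, introns included. Among loci of 8000 bases or more, 846 of 2629 fell (32.2%) and 55 rose (2.09%), but 31 of the losses reached 2-fold. Among loci of 1000 to under 2000 bases, 384 of 3124 fell (12.3%) and 411 rose (13.2%), and 248 of the losses reached 2-fold. Between these classes the shares that fell were 8.66% from 2000 bases and 11.1% from 4000 bases, and the shares that rose 10.6% and 4.67%. From 600 to under 1000 bases 13.9% fell and 9.47% rose. Under 600 bases 102 of 575 loci fell (17.7%) and 24 rose (4.17%). Loci without a gene identifier, whose median span was 506 bases, fell at 109 of 544 (20%).

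The shifts were seen in every library of both groups. The median deviation of the loci of 8000 bases or more from their mean over the 18 libraries was −0.16 to −0.09 in the +CdM libraries and 0.04 to 0.12 in the −CdM libraries, without overlap. For the loci under 600 bases it was −0.17 to −0.08 in the +CdM libraries and 0.18 to 0.37 in the −CdM libraries. The median Cd change of the longest class was 0.02 in low, −0.19 in middle and −0.08 in high sulfate plants, and that of the shortest class −0.01, −0.32 and −0.31. After each library was centred within 20 classes of span, an alternative added after the data were seen, 1603 loci were higher (6.92%) and 2435 lower (10.5%).

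**Figure D2:**
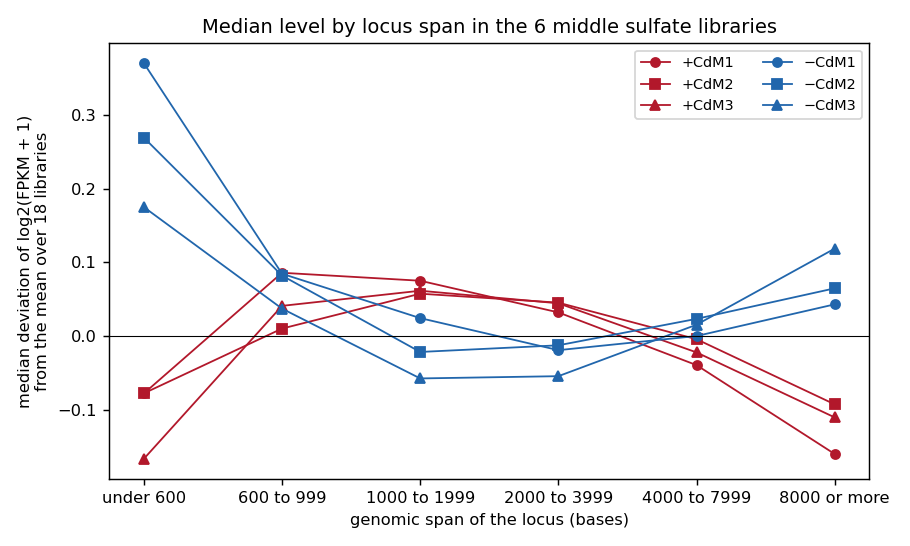
Median deviation of log2(FPKM + 1) from the mean over the 18 libraries (y axis) for loci of each genomic span in bases (x axis), 1 line per middle sulfate library, +Cd in red and −Cd in blue. The +Cd lines lie below the −Cd lines under 600 bases and from 4000 bases on, most clearly from 8000, among them from 600 to under 1000 bases and above them from 1000 to under 4000 bases.

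The small RNA libraries of the same groups give the level of the miRNAs that these sequences represent (CPM, reads scaled to library size by edgeR, over all reads of a family; library totals 1386295 to 2934283 reads). Of the 144 families and predicted candidates tested, 8 rose (5.56%) and 10 fell (6.94%; edgeR quasi-likelihood test, Benjamini-Hochberg), and the 8 were all named families while the 10 were all predicted candidates. The 18 calls dropped to 6 without −CdM2, 8 without +CdM2 and 10 without +CdM3. The 4 gains of smallest p were copper-responsive families. By size miR477 also rose more than miR1444, by 2.33 ± 0.46 (edgeR, adjusted p = 0.00051). miR408 had 15479, 15571 and 19176 CPM in +CdM1 to +CdM3, against 2272, 2053 and 2524 CPM in −CdM1 to −CdM3, and rose by 2.87 ± 0.31 (SE; edgeR, adjusted p = 2.1e-08). miR398 rose by 2.99 ± 0.32 and averaged 8007 ± 985 CPM in the +Cd group and 1007 ± 86.5 CPM in the −Cd group (SD, n = 3 each). miR397 rose by 2.55 ± 0.33, with 1158 ± 308 CPM in the +Cd group and 198 ± 17.6 CPM in the −Cd group. miR1444 had 26978, 28426 and 38960 CPM in +CdM1 to +CdM3, against 8611, 9557 and 10305 CPM in −CdM1 to −CdM3, and rose by 1.73 ± 0.26 (edgeR, adjusted p = 1.1e-05). miR472, miR482 and miR1448 were among the most abundant families and differed by 0.15, −0.12 and −0.17, none called. miR395, the sulfate-responsive family, differed by 0.30 ± 0.26 and was not called (edgeR, adjusted p = 0.49).

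**Figure D3:**
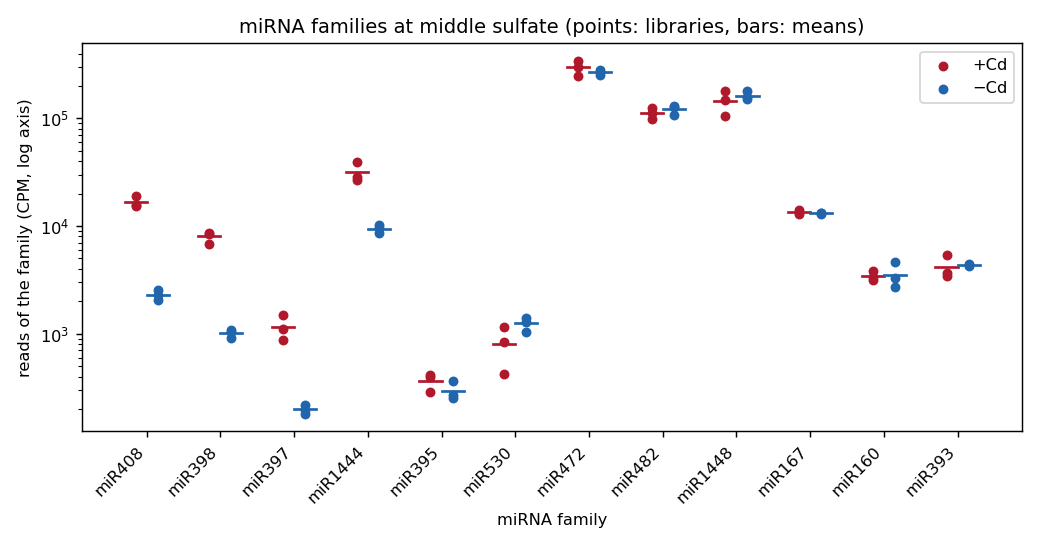
Reads of 12 miRNA families at middle sulfate (y axis, CPM, log axis), +Cd in red to the left of −Cd in blue, with points for libraries and bars for means (n = 3). miR408, miR398, miR397 and miR1444 separate, with all +Cd points above all −Cd points; miR472, miR482 and miR1448 overlap.

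The loci cut by the risen copper families did not move alike. Of the tested loci cut by miR1444, 4 of 6 fell, all of them in 1 run on chromosome 1, and most of those cut by miR397 and miR408 did not pass the test. The degradome lists 12 genes cut by miR1444, of which 6 had loci that could be tested and 4 fell (66.7%, against 13.1% of all loci), with a median of −1.34 over the 6. Potri.001G388900, the member with the most cut ends (up to 6445 reads at 1 site in the +Cd pool and 6061 in the −Cd pool), lies on chromosome 1 from 40683040 to 40685189. It had 272.8, 273.0 and 215.1 FPKM in +CdM1 to +CdM3, against 827.0, 614.3 and 611.4 FPKM in −CdM1 to −CdM3. The highest +Cd value was below the lowest −Cd value by more than 2-fold, and the change was −1.42 ± 0.20 (limma, adjusted p = 0.00016).

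Its neighbours followed. Potri.001G387900 averaged 6.89 ± 1.18 FPKM in +Cd leaves and 34.0 ± 7.63 FPKM in −Cd leaves (SD, n = 3 each), a change of −2.14 ± 0.37 (limma, adjusted p = 0.00084). Potri.001G388800 averaged 11.2 ± 2.18 FPKM in +Cd leaves and 53.1 ± 9.27 FPKM in −Cd leaves, a change of −2.15 ± 0.36 (limma, adjusted p = 0.00065). Potri.001G388200, much the lowest, averaged 0.401 ± 0.094 FPKM with Cd and 2.35 ± 0.377 FPKM without, a change of −1.25 ± 0.18 (limma, adjusted p = 0.00018). These 4 loci belong to a run of 5 consecutive loci over 343 kb, and Potri.001G387900 and Potri.001G388800 carry the same degradome read counts (91 in the +Cd pool and 134 in the −Cd pool), so near-identical copies may share reads and the values of single copies are uncertain. The other tested members were on other chromosomes. Potri.008G123300 was at 9.70 ± 0.917 FPKM with Cd and 11.5 ± 0.820 FPKM without (−0.23 ± 0.09; limma, adjusted p = 0.083), and Potri.011G108300 overlapped between the groups, with 7.38, 12.4 and 53.7 FPKM in +CdM1 to +CdM3 and 18.9, 23.9 and 19.5 FPKM in −CdM1 to −CdM3.

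The cluster also fell with Cd at low sulfate, where all 4 loci were called, and at high sulfate in 3 of the 4. Potri.001G388900 had Cd changes of −1.66 (low), −1.42 (middle) and −0.18 (high sulfate; limma, adjusted p = 0.58 at high), and the middle minus high difference of −1.24 was not called (limma, adjusted p = 0.40). Potri.001G387900 changed by −2.81 with low and −1.58 with high sulfate, Potri.001G388800 by −2.89 and −1.47, and Potri.001G388200 by −1.12 and −0.98. The middle minus low difference was called for none of the 4 (limma, adjusted p of 0.41 to 0.80).

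Among the 5 tested loci cut by miR397, known for laccases, 0 were called in either direction, with a median of 0.30, although their miRNA rose. The most abundant, Potri.011G120300, had 24.5, 15.5 and 20.8 FPKM in +CdM1 to +CdM3 and 22.6, 13.1 and 16.2 FPKM in −CdM1 to −CdM3, which overlap (0.23 ± 0.21; limma, adjusted p = 0.49). Potri.016G112000 averaged 16.8 ± 2.18 FPKM with Cd and 18.03 ± 4.15 FPKM without (−0.08 ± 0.20; limma, adjusted p = 0.81). Without +CdM2 1 locus of this list was called higher. Of 4 tested loci cut by miR408 1 fell (13.1% of all loci did), Potri.018G047800, whose site has 2 reads in the +Cd pool. It averaged 57.2 ± 3.88 FPKM with Cd and 80.9 ± 6.69 FPKM without, a change of −0.49 ± 0.12 (limma, adjusted p = 0.0094), and spans over 8000 bases. Centred within span classes it was not called (−0.34; limma, adjusted p = 0.065). For miR398 the degradome listed no site in categories 0 to 2.

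The 4 tested loci cut by miR395, which is known to act on ATP sulfurylase, the first enzyme of sulfate assimilation, gave 0 calls and a median of 0.17. Potri.010G081200 had 29.1, 33.0 and 37.01 FPKM in +CdM1 to +CdM3 and 28.0, 22.0 and 26.9 FPKM in −CdM1 to −CdM3. All +Cd values were above all −Cd values, and the change of 0.35 ± 0.12 missed the threshold (limma, adjusted p = 0.054), which it passed under 8 of the 31 alternatives run for it, with adjusted p of 0.030 to 0.198 over all 31. Potri.008G159000 averaged 80.3 ± 17.2 FPKM with Cd and 54.8 ± 14.1 FPKM without (0.55 ± 0.25; limma, adjusted p = 0.14).

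**Figure D4:**
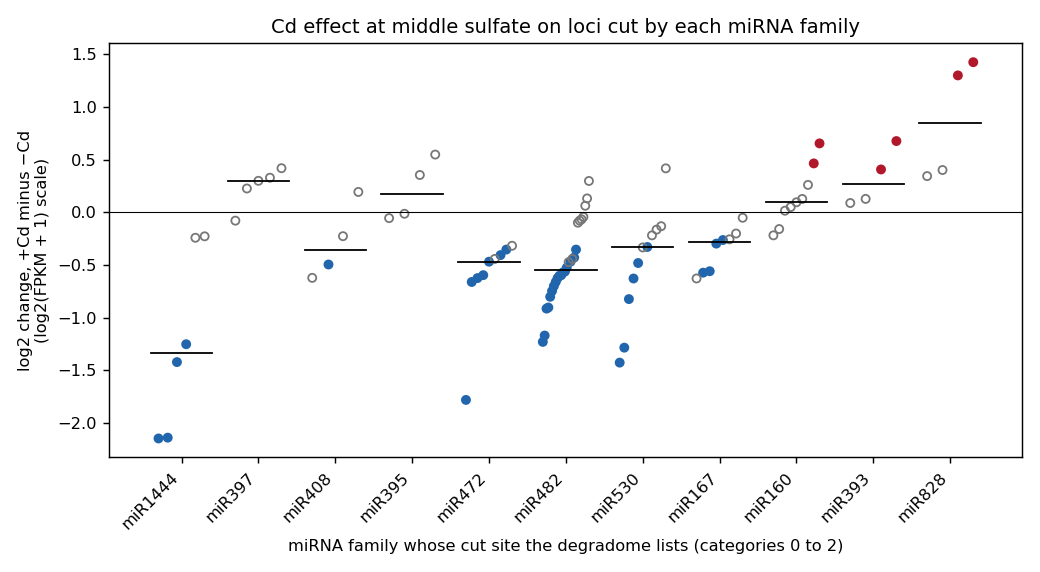
Log2 change (y axis, +Cd minus −Cd at middle sulfate, log2(FPKM + 1) scale) of each tested locus cut by the miRNA families on the x axis. Filled points were called (blue lower, red higher), open points were not, and bars are the family's median; miR1444, miR472, miR482 and miR530 hold mainly blue points below 0 and miR828 and miR393 hold red points.

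Loci cut by the resistance gene families, singled out after their values were seen, mostly fell. The degradome lists 43 genes cut by miR472, miR482 or miR1448, of which 30 loci were tested. Of these 19 fell (63.3%, against 13.1% of all loci) and 0 rose (against 7.71%), with a median of −0.50, where the median of all loci was near 0. At 20 of the 30 all +Cd values lay below all −Cd values (background 20.9%), and the median level was 6.50 FPKM with Cd and 9.77 FPKM without. By family 17 of 26 miR482-cut loci, 7 of 9 miR472-cut loci and 1 of 2 miR1448-cut loci fell. The median span of the 30 was 4071.5 bases and 5 spanned at least 8000 bases; centred within span classes 17 of the 30 were lower (background 10.5%), and under quantile normalization 18 (background 10.7%). With single libraries left out 14 to 21 were lower, 11 where a mean of at least 5 FPKM was asked for, which leaves fewer of the list to test, and 9 of the 12 loci that had a site of category 0 or 1. Resistance genes occur in clusters of near-identical copies that can share reads.

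Potri.017G133600, cut by miR472 (chromosome 17, 14316068 to 14319251), had the strongest fall. It had 5.11, 3.89 and 5.47 FPKM in +CdM1 to +CdM3, against 16.6, 23.5 and 17.3 FPKM in −CdM1 to −CdM3. The groups were about 3-fold apart at their nearest values, and the change was −1.78 ± 0.19 (limma, adjusted p = 1.8e-05). Potri.011G015400, cut by miR482, averaged 2.42 ± 0.448 FPKM with Cd and 7.10 ± 1.72 FPKM without (−1.23 ± 0.22; limma, adjusted p = 0.0011). Potri.006G147100, also cut by miR482, had 4.95, 5.19 and 4.54 FPKM in +CdM1 to +CdM3 and 9.81, 14.4 and 12.9 FPKM in −CdM1 to −CdM3 (−1.17 ± 0.24; limma, adjusted p = 0.0034). Potri.009G073300 varied least between libraries, with 31.4, 32.4 and 32.5 FPKM in +CdM1 to +CdM3 and 47.2, 44.2 and 48.5 FPKM in −CdM1 to −CdM3, and fell by 0.53 ± 0.06 (limma, adjusted p = 2.9e-05). It spans over 8000 bases, and with spans centred the change was −0.26 (limma, adjusted p = 0.0075).

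The locus with the most miR482 cut ends, Potri.010G231200 (1255 reads in the +Cd pool and 1502 in the −Cd pool), averaged 9.59 ± 1.72 FPKM with Cd and 19.3 ± 5.38 FPKM without. Its change of −0.91 ± 0.26 (limma, adjusted p = 0.022) lost the call when −CdM2, −CdM3, +CdM2 or +CdM3 was left out and when spans were centred, with adjusted p up to 0.088. Potri.006G007900, with 226 reads in the +Cd pool and 311 in the −Cd pool, averaged 2.23 ± 0.213 FPKM with Cd and 2.11 ± 0.418 FPKM without, and was not called (0.06 ± 0.17; limma, adjusted p = 0.83). The 11 loci of the list that were not called ran from −0.47 to 0.30.

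Across sulfate the 30 loci had a median Cd change of 0.03 in the low, −0.50 in the middle and −0.32 in the high sulfate plants. Of the 30, 0 were called at low sulfate (background 0.397% lower) and 11 at high sulfate (background 8.59% lower). The Cd effect was lower at middle than at low sulfate at 8 of the 30 by the test of that difference, against 4.85% of all loci. Potri.017G133600 changed by −0.35 at low and −1.97 at high sulfate, and its middle minus low difference was −1.44 ± 0.27 (limma, adjusted p = 0.0061).

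**Figure D5:**
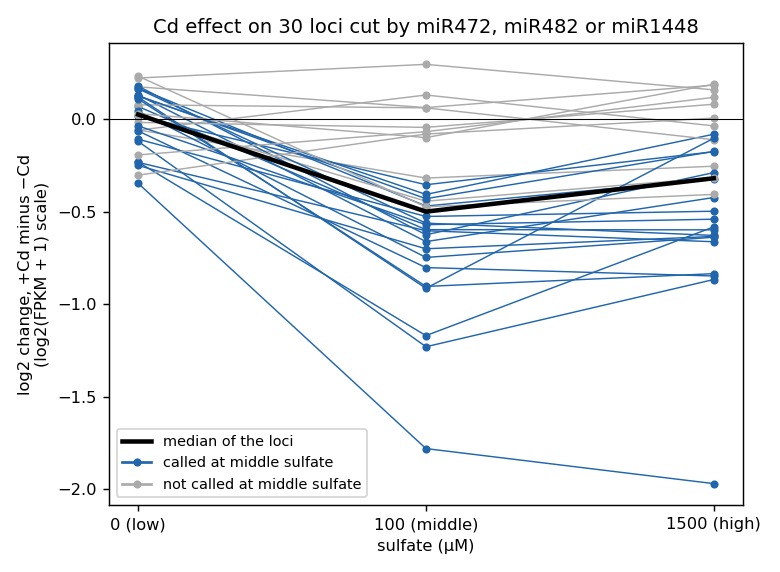
Cd effect (y axis, log2 change on the log2(FPKM + 1) scale, +Cd minus −Cd) on the 30 tested loci cut by miR472, miR482 or miR1448 at each sulfate supply (x axis, µM). Thin lines are loci, blue where called at middle sulfate, and the black line is their median, at 0.03, −0.50 and −0.32.

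The loci cut by miR530 and miR167 were also lower more often than all loci, and these lists too were chosen with their values known. Of 11 loci cut by miR530, 6 fell (54.5%, against 13.1%) and 0 rose, with a median of −0.33. Potri.004G061800 had 34.2, 28.6 and 30.3 FPKM in +CdM1 to +CdM3, against 76.3, 93.3 and 86.2 FPKM in −CdM1 to −CdM3, a change of −1.43 ± 0.16 (limma, adjusted p = 2.6e-05). Its degradome support was thin, 2 reads in the −Cd pool. Potri.014G099700 averaged 14.6 ± 0.871 FPKM with Cd and 37.8 ± 10.1 FPKM without (−1.29 ± 0.15; limma, adjusted p = 4.5e-05). Potri.008G162500, which had the most cut ends of this list with 39 reads in the +Cd pool and 94 in the −Cd pool, averaged 18.6 ± 2.33 FPKM with Cd and 26.2 ± 1.20 FPKM without (−0.48 ± 0.11; limma, adjusted p = 0.0060). It spans over 8000 bases and was not called with spans centred (limma, adjusted p = 0.051). With spans centred 4 of the 11 were lower. miR530 itself differed by −0.64 ± 0.31 and was not called (edgeR, adjusted p = 0.19).

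For 3 families known for auxin-related targets, the called loci, few in each list, fell for miR167 and rose for miR160 and miR393. The loci carry no gene names here, so none was identified as an auxin gene. miR167 is known to act on the auxin response factors ARF6 and ARF8, miR160 on other auxin response factors, and miR393 on the auxin receptors of the TIR1/AFB family. Of 8 loci cut by miR167 4 fell (13.1% of all loci did) and 0 rose (7.71%), with a median of −0.28. However, 4 of the 8 span at least 8000 bases, a class in which 32.2% of loci fell. With spans centred 4 of the 8 were lower (10.5% of all loci were). With single libraries left out the count ran from 2, without −CdM3, to 6, without −CdM2. Potri.002G055000 averaged 12.9 ± 0.656 FPKM with Cd and 19.4 ± 1.18 FPKM without (−0.56 ± 0.09; limma, adjusted p = 0.00065). Potri.004G078200 averaged 15.4 ± 1.36 FPKM with Cd and 23.5 ± 3.45 FPKM without (−0.57 ± 0.10; limma, adjusted p = 0.00065). Of 9 loci cut by miR160 2 rose, with a median of 0.10 over the 9, and of 4 cut by miR393 2 rose, with a median of 0.27, where 7.71% of all loci rose. Potri.010G223200, cut by miR160, had 11.5, 16.8 and 15.4 FPKM in +CdM1 to +CdM3 and 9.36, 8.60 and 8.41 FPKM in −CdM1 to −CdM3 (0.65 ± 0.14; limma, adjusted p = 0.0045). Potri.002G207800, cut by miR393, averaged 9.83 ± 0.714 FPKM with Cd and 5.79 ± 0.632 FPKM without (0.68 ± 0.14; limma, adjusted p = 0.0028). Without −CdM2 or +CdM2 1 of the miR160 loci was called, and 1 of the miR393 loci without any one of −CdM1, −CdM2, −CdM3, +CdM2 and +CdM3. With spans centred 2 of the 9 miR160 loci and 1 of the 4 miR393 loci were higher (6.92% of all loci were). The 3 families themselves differed by 0.03, −0.05 and −0.07, none called (edgeR).

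The largest gains among cut loci were those of miR828, known to act on MYB transcription factors. Of its 4 tested loci 2 rose (50%, against 7.71% of all loci), and all 4 were at low levels. Potri.018G127700 had 5.18, 6.33 and 4.14 FPKM in +CdM1 to +CdM3, against 0.936, 1.34 and 1.65 FPKM in −CdM1 to −CdM3, and rose by 1.43 ± 0.21 (limma, adjusted p = 0.00024). Potri.012G080400 averaged 2.23 ± 0.188 FPKM with Cd and 0.326 ± 0.265 FPKM without and rose by 1.30 ± 0.21 (limma, adjusted p = 0.00045). The scale understates the change of such low loci, which for Potri.012G080400 ran from 0.44 at a pseudocount of 5 to 2.63 at 0.1, called at both. None of the 4 reached the mean of 5 FPKM of the stricter filter, so they were not tested under it. Over all named families 51 of 270 tested cut loci fell (18.9%, against 13.1% of all loci) and 13 rose (4.81%, against 7.71%). Of the 51 losses 19 were among the 30 loci cut by miR472, miR482 or miR1448, so the share does not describe cut loci in general. In the longest other lists 1 of 36 loci cut by miR156 fell (2.78%), 2 of 20 cut by miR396 (10%) and 1 of 16 cut by miR172 (6.25%). Of the 26 families with at least 4 tested loci, 10 had none called.

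The next locus along the chromosome was called the same way somewhat more often than all loci were, though most called loci had no such neighbour. Where a locus fell, the next tested locus on the chromosome also fell in 532 of 3030 cases (17.6%, against 13.1% of all loci), and where it rose the next also rose in 190 of 1787 cases (10.6%, against 7.71%). Of 8 runs of at least 5 consecutive tested loci called the same way, 7 were lower and 1 higher. The miR1444-cut cluster is the run on chromosome 1, from 40412587 to 40756019. The run on chromosome 11 from 1062229 to 1129096 holds Potri.011G013400 and Potri.011G014100, both cut by miR482, and that on chromosome 17 from 14316068 to 14367357 opens with Potri.017G133600 and has a median change of −1.98, with −0.06 at low and −1.26 at high sulfate. The longest, of 7 loci, lies on chromosome 5 from 16758150 to 16968119, with medians of −0.56 (low), −1.98 (middle) and −2.15 (high). The run of gains, also on chromosome 5, spans 7236772 to 7312305 and has a median of 0.86. Neighbouring loci in such runs may be copies or pieces of 1 gene and may share reads; in the run on chromosome 13 from 15620139 to 15641205, 3 of the 5 loci carry the same identifier.

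The Cd effect at middle sulfate was then set against that at low and at high sulfate, which asks whether the response depended on sulfate supply; the effects share no library. It differed from that at low sulfate at 1454 loci (6.28%; limma, adjusted p under 0.05), at 331 toward higher (1.43%) and at 1123 toward lower (4.85%). At 1338 of the 1454 the effect was larger in size at middle sulfate, and 1331 were also called there (20.8% of all loci were). Of the 1123 loci 1065 fell at middle sulfate (13.1% of all loci did). At low sulfate 16 of them were called, where 0.319% of all loci rose and 0.397% fell. The loci were picked by a difference that contains the middle sulfate effect, so these counts were largely set by the choice and are no separate result. Potri.006G254100 showed such a difference, with a Cd change of 1.53 at middle against 0.14 at low sulfate (1.39 ± 0.18; limma, adjusted p = 0.00080). At low sulfate it was already high without Cd, at 62.5, 56.8 and 46.1 FPKM in −CdL1 to −CdL3. With Cd it had 57.5, 58.7 and 64.7 FPKM in +CdL1 to +CdL3. The −CdM1 to −CdM3 libraries had 20.2, 18.1 and 22.6 FPKM, so the 2 sulfate levels differed mainly without Cd at this locus. Without −CdL2 868 loci differed and without −CdM3 896. The 1123 loci had a median span of 5895 bases against 3768.5 for all loci tested, and with spans centred 1012 loci differed.

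Between middle and high sulfate 0 loci differed by limma, with a smallest adjusted p of 0.144, while 1910 (8.24%) had an unadjusted p under 0.05. The other settings gave 0 to 5. The median SE of a middle minus high difference was 0.21 on the log2 scale, and differences well above that size were also not called with 3 libraries per group. Potri.011G142800, among the 8 largest gains at middle sulfate, had a difference of 1.34 ± 0.32 and was not called (limma, adjusted p = 0.41). The 0 calls therefore do not show that the 2 effects were alike.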

How the data were processed

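The authors deposited FPKM per locus for each mRNA library. TopHat2 2.1.1 is named in the submitters' processing notes. Not given in the sources used here are the build, the annotation and the FPKM program. For small RNA the authors deposited expected counts, fractional where reads were split over hairpins, and a normalized signal that was not used for tests. For the degradome they deposited read counts at each cut site, an expected count divided over transcripts, a scaled signal and an alignment score, of which the counts and categories were used. Per the labels, RNA integrity numbers were above 7.0.

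Log2(FPKM + 1) of loci with a mean of at least 1 FPKM was fitted with limma 3.58.1 in R 4.3.3 (trend, robust empirical Bayes, 6 group means over 18 libraries, 12 residual degrees of freedom). All p-values are two-sided, adjusted by Benjamini-Hochberg over all loci, and changes are +Cd minus −Cd. Expected counts were summed over hairpins and family, rounded, and compared by edgeR 4.0.16 (TMM, filterByExpr, quasi-likelihood, SE from the F statistic). CPM are scaled by adjusted library totals. Steps were tested on simulated data.

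Alternatives were pseudocounts of 0.1 and 5, other filters, quantile and median ratio scaling, a fit of 6 libraries, replicate numbers as a block, each library left out, DESeq2 1.42.0 for small RNA, and, added after the data were seen, span centring, single identifiers and degradome categories 0 and 1. Loci were named by largest change and smallest p among called loci with groups that do not overlap and at least 10 FPKM. Since no names are paired with identifiers, only 2 per direction are printed, and the loci cut by miRNAs are examples. The members and lists were chosen with earlier results of these data known.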

Additional observations from a re-analysis of the deposited data

Results flagged for a closer look

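The results below are flagged because the Cd effect at middle sulfate differed from that at low sulfate by the test of the difference (limma, adjusted p under 0.05). They number 1454 loci. Among the loci named above, Potri.006G254100 (1.39) and the miR828-cut Potri.018G127700 (1.06; limma, adjusted p = 0.047) differed toward higher at middle sulfate. Toward lower differed Potri.001G397200 (−1.32), the miR472-cut Potri.017G133600 (−1.44), the miR482-cut Potri.011G015400 (−1.11; limma, adjusted p = 0.046) and Potri.009G073300 (−0.42), the miR530-cut Potri.004G061800 (−1.11) and Potri.014G099700 (−0.90), and the miR167-cut Potri.004G078200 (−0.58). Potri.005G024900, listed at 0 in all 3 +CdM libraries, had a fitted difference of −3.68 (limma, adjusted p = 0.022), which depends on the pseudocount and is no bound. Of these 10 loci only Potri.001G397200 was also called for Cd at low sulfate (−1.04; limma, adjusted p = 0.010). Groups of 3 libraries are too small for the check of single outlying samples.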

How the results depend on the processing

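The higher loci numbered 2958 under quantile normalization, 1040 with only the 6 middle sulfate libraries, 180 with at least 2-fold asked for (880 lower), and 1069 to 1903 with a library left out. The other counts ran over the libraries left out from 2159 to 3225 lower loci, from 868 to 1593 middle minus low differences, and from 0 to 5 middle minus high differences, with 1 at a pseudocount of 5 and 1 with no filter on low values. The small RNA calls, 18 in all, numbered 6 without small RNA library −CdM2, 8 without +CdM2 and 10 without +CdM3, and up to 18 without the others. They numbered 12 with median ratio (RLE) scaling, 12 with no filter on low counts and 19 with DESeq2. Same-numbered +CdM and −CdM libraries did not deviate together (r of −0.019 to 0.049, against −0.092 to 0.106 for different numbers). With 3 libraries per group this cannot decide whether the numbers are pairs, and they were not treated as pairs. With the replicate block 1686 loci were higher and 2915 lower, 1309 differed from low and 0 from high sulfate, and 18 small RNAs were called. No named locus that was called changed sign, while Potri.008G123300, Potri.011G108300, Potri.016G112000 and Potri.006G007900, which were not called, did under some alternatives. The cause of these moves was not tested. The mRNA depth is unknown, and low loci are the least precise.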
